A study of Mus musculus with 26 samples.

Results

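Early and late positive selection were compared in CD4+CD8+ double-positive (DP) thymocytes of F5 T cell receptor (TCR) transgenic mice, by 3 RNA-seq libraries of each stage, 6 of the 26 libraries of the study. The study followed MHC class I restricted thymocytes of 3 TCR transgenic lines through positive selection. Its TG6, F5 and OT-1 lines stand for low, intermediate and high self-reactivity, and each line was sorted at early and late positive selection and as mature CD8 single-positive (CD8SP) thymocytes. Early cells were CD4+CD8+CXCR4+CCR7-, late cells CD4+CD8+CXCR4-CCR7+ and mature cells CD4-CD8+CXCR4-CCR7+, all from the thymus. All F5 mice had the genotype F5tg Rag1KO on the C57/BL6 strain, so both stages shared the transgene and the Rag1 deletion. Their age is not in the labels, and the TCR they carry is 1 fixed receptor. The OT-1 mice were OT-1tg Rag2KO, and the TG6 mice carried H2b/d and were not labelled Rag-deficient, so that line and genotype cannot be told apart wherever lines are set side by side. The table held normalized counts for 46517 gene symbols, of which 14604 reached 10 in at least 2 of the 6 F5 libraries and were tested.

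Positive selection is the step at which a DP thymocyte whose TCR binds self-peptide on MHC is rescued from death and allowed to mature. An early positively selected cell sits in the thymic cortex, held there in part by the chemokine receptor CXCR4. As it matures, it loses CXCR4, gains CCR7, the receptor that draws it to the medulla, ends recombination of its TCR genes and commits to the CD4 or CD8 lineage. For a class I restricted receptor such as F5 the fate is the CD8 lineage.

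The depth was even. The normalized totals of the 6 libraries ran from 16353254 to 17686398. By the size of a single read in each library, these correspond to 16161675 to 17319527 reads. Libraries with the same replicate number deviated together and were paired in an alternative fit, although the labels do not say that a number marks 1 mouse. Late replicate 2 stood apart from the other 2 late libraries. Among 53 genes with an early mean of at least 500 and at most 2% of it left in late replicates 1 and 3, late replicate 2 held a median of 11% of the early mean (interquartile range 9.99 to 11.7%), and the choice of genes favours such a gap. The same rule found 2 genes for late replicate 1 and 1 gene for late replicate 3. Over all tested genes it correlated at 0.94 to 0.943 with the early libraries, against 0.905 to 0.927 for late replicates 1 and 3. Values without this library are therefore given below where the call of a named gene depends on it or the count of a list moves clearly.

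Of the 14604 genes, 2083 were higher at late positive selection (14.3%) and 2302 were lower (15.8%) at an adjusted p under 0.05, by limma on log2(normalized count + 1). All fold changes below are late minus early on that scale, with the standard error, and the median over all tested genes was 0.04. Without late replicate 2 the counts were 1911 higher (13.1%) and 2101 lower (14.4%), of which 1734 and 1987 were among the genes called with all libraries. The falls were deeper than the rises. A log2 change beyond 2 was seen for 162 genes called higher and 604 called lower, and one beyond 4 for 16 and 162. In 6318 genes (43.3%) the 3 early and 3 late values did not overlap, among them 1972 of the genes called higher and 2231 of those called lower. The filter was passed through the late libraries alone by 275 genes and through the early ones alone by 327. The filter itself favours a difference in these genes, and their number is given where a list that holds any is counted below. In a sorted population the data cannot tell apart fewer cells that carry a transcript and less of it per cell.

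The surface proteins used for the sort give a check of the labels and are no finding between the stages. Ccr7 lay at 270, 186 and 140 in the early libraries and at 7609, 2698 and 3615 in the late ones, a log2 difference of 4.45 ± 0.35. Cxcr4 lay at 2638, 3691 and 4185 at the early stage and at 1139, 1403 and 2561 at the late stage. The groups of Cxcr4 did not overlap, but its fall of 1.10 ± 0.43 on the log2 scale had an adjusted p of 0.0569, and 4.15e-05 once the replicate number was a term in the fit. Cd4 and Cd8a, the coreceptors that define a DP cell, were abundant at both stages. Cd8a fell from 31839, 33129 and 34599 to 21019, 24538 and 23449 (adjusted p = 0.00199), and Cd4 went from 12506, 14604 and 13502 to 5160, 10664 and 7981 with an adjusted p of 0.227. Rag1, whose gene the F5 mice lack, still had 10835, 15149 and 16266 normalized counts at the early stage. Both groups carry the deleted allele, and the gene counts do not say which part of the transcript the reads came from, so Rag1 does not check the genotype here.

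**Figure D1:**
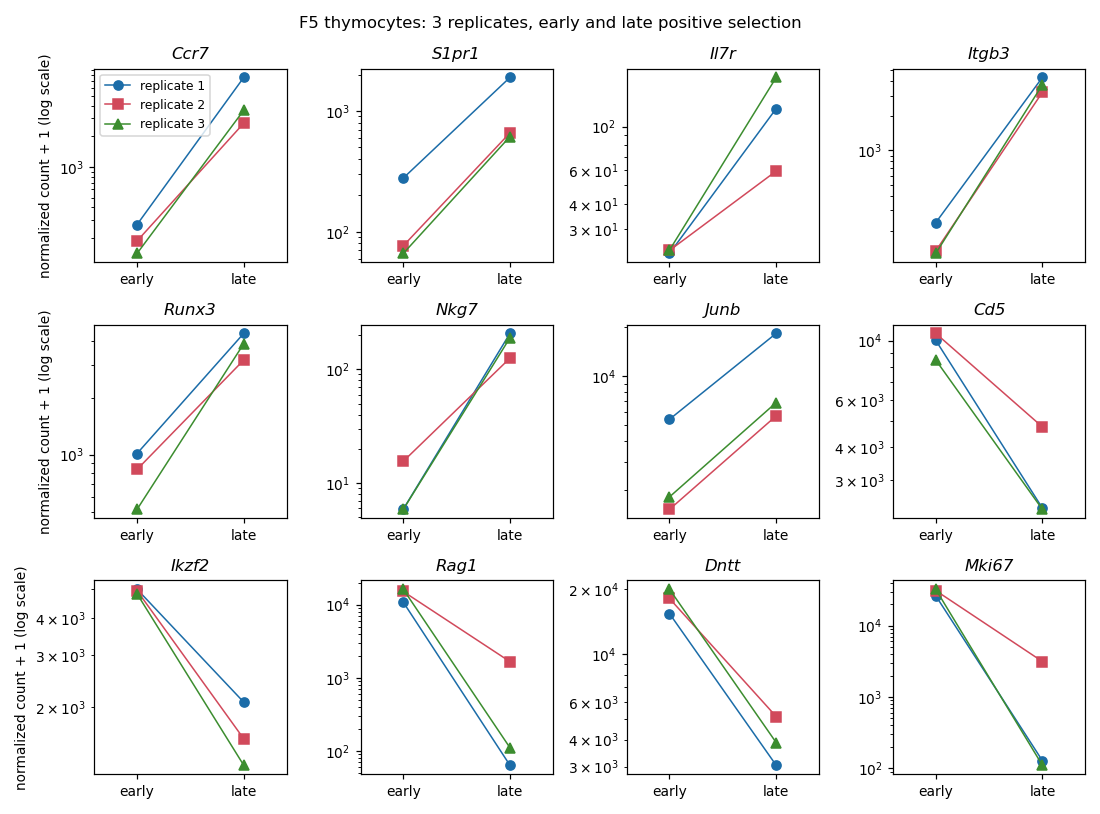
Normalized count + 1 (log scale) of 12 genes in F5 replicates 1 to 3 at early and late positive selection, each line joining the libraries with the same replicate number. Ccr7, S1pr1, Il7r, Itgb3, Runx3, Nkg7 and Junb are higher at the late stage in every replicate, Cd5, Ikzf2, Rag1, Dntt and Mki67 are lower in every replicate, and of the 3, replicate 2 keeps the most Rag1 and Mki67 at the late stage.

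Genes of the cell cycle made up the deepest falls. Of 45 listed genes of G2/M and mitosis, 44 were tested, 42 fell and none rose, with a median change of -4.92, or -5.83 without late replicate 2. Of 50 genes of DNA replication and S phase, 49 fell and none rose, with a median of -2.31, or -2.42 without that library. The share of all tested genes called lower was 15.8%. Summed over the list, the mitotic genes lay between 143742 and 186909 in the early libraries and at 8966, 24358 and 9050 in late replicates 1 to 3. The replication genes summed to between 91281 and 106726 early and between 21697 and 28699 late. Both groups were far apart for both sums, and the mitotic genes fell more than the replication genes.

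Mki67, the proliferation marker Ki-67, went from 26351, 31094 and 32414 to 127, 3139 and 109 (-6.40 ± 0.77, adjusted p = 2.25e-06). The late level was thus lowest in replicates 1 and 3 and higher in replicate 2, and without replicate 2 the change was -7.98. Top2a, the topoisomerase that untangles chromosomes before division, showed the same order, with 153, 2179 and 151 left of 18658, 25611 and 22990. Ccna2, the cyclin of S phase and G2, kept 14.8, 551 and 19 of 4543, 6220 and 5601. The largest changes among the genes named by rule were also of this kind. E2f8, an atypical E2F that represses S phase genes, changed by -7.73 on the log2 scale (-9.81 without late replicate 2), from 1741, 2725 and 2211 to 2.00, 183 and 1.00. Cenpf, a kinetochore protein, changed by -7.41 (-9.52 without that library), from 6397, 6350 and 6376 to 11.7, 689 and 4.93. Espl1, the separase that cuts cohesin at anaphase, changed by -7.26 (-9.24 without that library), from 1752, 2286 and 2383 to 2.04, 214 and 3.06. All 3 genes were thus near the floor of 3 in some late library and well above it in replicate 2. Depdc1a, Pif1, Kif18b, Mxd3, Pbk, Shcbp1, Ncapg, Kif2c and Cep55 were named by the same rule.

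Replication genes kept more of their early level. Mcm5, a subunit of the replicative helicase, lay at 3685, 3901 and 3813 early and at 722, 902 and 605 late (-2.37 ± 0.27). Pcna, the sliding clamp of the DNA polymerases, lay at 7752, 8324 and 7408 early and at 2590, 2364 and 1497 late (-1.90 ± 0.28). Ccne2, a cyclin of the entry to S phase, went from 514, 913 and 633 to 134, 66.3 and 31.6. In these 3 genes late replicate 2 did not lie above both other late libraries by the margin seen for the mitotic genes, and for Pcna and Ccne2 it lay between them. Only 3 listed genes of the cell cycle did not pass the test. They were Rpa1, which binds single-stranded DNA (4818, 4797 and 4730 against 4367, 3866 and 4350), Pttg1, the securin that holds separase (224, 198 and 204 against 190, 152 and 193), and Kif23, a kinesin of the dividing cell's midzone (2073, 2471 and 2474 against 1616, 1693 and 2023).

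**Figure D2:**
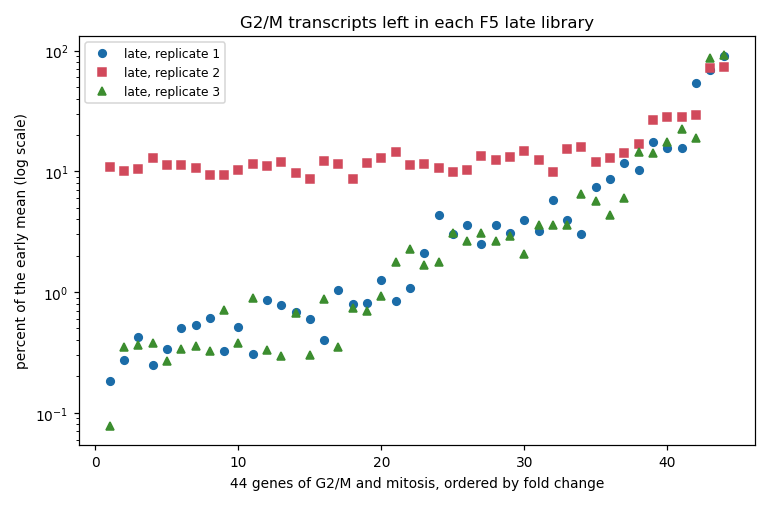
Level of 44 genes of G2/M and mitosis in each of the 3 F5 late libraries, as a percent of the early mean on a log scale, with genes ordered by fold change. Replicate 2 keeps near 10% for most genes while replicates 1 and 3 lie well below it, down to under 1%, until the genes with the smallest change at the end of the axis.

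Promoters of 3 of these genes are printed because mitotic genes share short elements close to the start of transcription, the CCAAT box bound by NF-Y and the cell cycle homology region (CHR). Each line holds the 250 bases before the start, 5′ to 3′ on the gene's strand, from RefSeq on GRCm38.p6, with CCAAT and TTTGAA on either strand in capitals. The windows are chr10:69352913-69353162 on the minus strand for Cdk1, the kinase that drives entry into mitosis, chr2:164769679-164769928 on the plus strand for Ube2c, the E2 enzyme of the anaphase-promoting complex, and chr19:37376132-37376381 on the plus strand for Kif11, the kinesin that separates spindle poles.
Cdk1: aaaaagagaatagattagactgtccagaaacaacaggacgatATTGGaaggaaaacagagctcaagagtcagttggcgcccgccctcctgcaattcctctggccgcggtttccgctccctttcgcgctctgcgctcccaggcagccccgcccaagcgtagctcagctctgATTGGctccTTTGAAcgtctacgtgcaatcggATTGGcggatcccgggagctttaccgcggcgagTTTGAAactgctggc
Ube2c: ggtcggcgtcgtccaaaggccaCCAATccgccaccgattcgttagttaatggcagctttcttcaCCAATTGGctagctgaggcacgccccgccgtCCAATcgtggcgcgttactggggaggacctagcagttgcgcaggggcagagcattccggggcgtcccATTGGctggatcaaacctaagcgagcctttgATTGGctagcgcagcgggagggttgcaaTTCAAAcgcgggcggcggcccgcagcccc
Kif11: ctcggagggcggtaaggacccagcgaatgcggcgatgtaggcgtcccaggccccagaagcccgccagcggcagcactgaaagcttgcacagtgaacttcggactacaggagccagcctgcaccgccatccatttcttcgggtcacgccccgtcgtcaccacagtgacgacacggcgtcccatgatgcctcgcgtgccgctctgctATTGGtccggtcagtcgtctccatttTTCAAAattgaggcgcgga

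The 3 genes moved alike. Cdk1 kept 9.49, 192 and 6.99 of 1474, 2250 and 1834 normalized counts, Ube2c 39, 394 and 28.3 of 2569, 3466 and 3184, and Kif11 165, 903 and 133 of 7055, 8643 and 8064. CCAAT was found in 28 of the 37 mitotic promoters in the table (75.7%) and in 23 of 39 replication promoters (59.0%), against 36.9% of the 9576 tested genes with a window. TTTGAA was found in 12 of the 37 mitotic promoters (32.4%), in 5 of 39 replication promoters (12.8%) and in 10.6% of the tested genes. Both were counted on both strands, and no overlap was taken out. These are letter matches, and nothing here shows that a factor binds them. Among the other lists, CCAAT was also frequent in the sterol and fatty acid genes, at 17 of 23 promoters (73.9%), and TTTGAA was found in 7 of 24 promoters of survival genes (29.2%), so that neither was confined to the cell cycle lists.

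In the mature stage these genes were higher again. Of the same lists, 42 of the 44 mitotic genes and 48 of the 50 replication genes rose from late to mature F5 thymocytes, with medians of 3.52 and 2.05, where 13.1% of all tested genes rose and 9.47% fell. The mature sums of the mitotic genes were 44425, 118168 and 66173, between the early and the late sums for every replicate number. Mki67 stood at 7016, 17259 and 11653 in mature cells. The mature and early comparisons share the late libraries, and the values are given side by side only. Replicate 2 had the highest mature sum as well as the highest late sum.

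**Figure D3:**
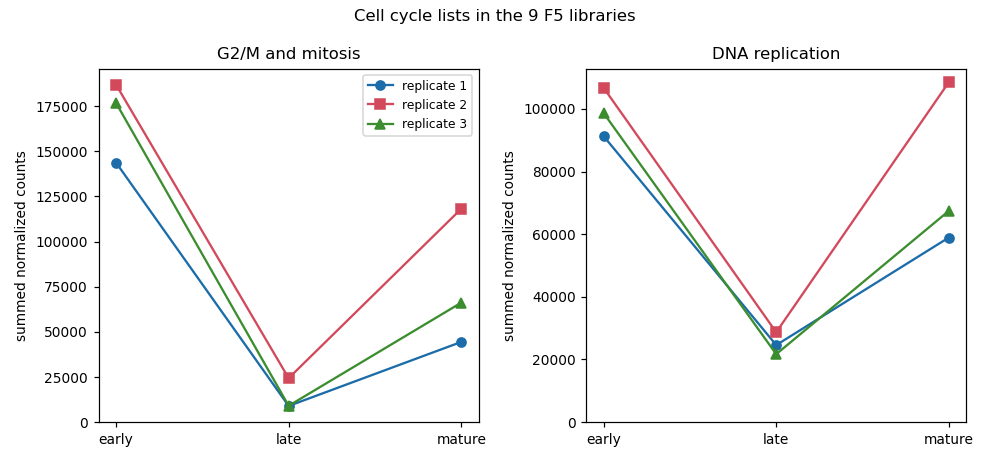
Summed normalized counts of the G2/M and the replication lists in the 9 F5 libraries, by stage, each line joining the libraries with the same replicate number. Both sums are lowest at late positive selection for all 3 replicate numbers, and replicate 2 is the highest of the 3 at the mature stage, where its replication sum is close to its early one.

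Genes of recombination and DP identity fell too. Of 17 tested genes of recombination and DP identity, 13 fell (76.5%, against 15.8% of all genes) and 1 rose (5.88%), with a median of -2.18. Without late replicate 2, 13 fell and none rose, with a median of -2.50. Rag1 and Rag2, the recombinase subunits, sit side by side on chromosome 2 (Rag1 at 101638282 to 101649501, Rag2 at 101624718 to 101632529). Rag1 went to 62.3, 1658 and 109 (-5.94 ± 0.88, adjusted p = 2.49e-05, and -7.38 without late replicate 2). Rag2 went from 669, 1434 and 1448 to 1.54, 122 and 7.71 (-6.32 ± 1.00, and -7.89 without that library). Late replicate 2 was again the high one of the late libraries for both. Dntt, the terminal transferase that adds bases at V(D)J junctions, kept more, at 15428, 18130 and 20017 early and 3038, 5122 and 3875 late. Ptcra, which encodes the surrogate alpha chain of the pre-TCR, fell from 360, 383 and 475 to 11.2, 47.2 and 21.4. Bcl6, a repressor known from DP cells and germinal centre B cells, fell by 2.15 to 354, 841 and 472. Endou, a DP transcript that encodes an endoribonuclease, kept 63.3, 533 and 51.0 of 3797, 4689 and 4480. The gene of this list that rose was Ccr9, the receptor for CCL25 of the thymic stroma, at 24785, 21128 and 20280 early and 30076, 33572 and 29722 late. Its adjusted p was 0.0361, was 0.106 without late replicate 2, and lay between 0.0579 and 0.12 without each other library except early replicate 1. Themis, an adaptor needed for positive selection, was level, at 11033, 12151 and 11525 against 11730, 12126 and 12169 (adjusted p = 0.667).

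Of 27 tested genes of survival and death, 3 rose (11.1%) and 5 fell (18.5%), near the 14.3 and 15.8% of all genes. With the replicate number as a term the counts were 6 and 6. Among the 27, 1 passed the filter through the early libraries alone. Bcl2l1, which encodes the survival protein Bcl-xL, went from 1794, 2012 and 2049 to 576, 707 and 553 (-1.68 ± 0.20), while Bcl2 rose from 870, 924 and 771 to 1275, 1081 and 1348 (0.53 ± 0.18, adjusted p = 0.0272, and between 0.0521 and 0.106 without early replicate 1 or 3 or late replicate 1 or 3). For both genes the groups did not overlap.

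The study used 11 genes as a signature of preselection DP cells. Of these, 7 fell (63.6%, against 15.8% of all genes) and 1 rose (9.09%, against 14.3%), with a median of -0.67. The study took the list from microarray data of other mice. Without late replicate 2, 6 fell and 1 rose. Among those that fell, Glcci1 changed by -1.86 and Slc7a11, the cystine transporter, by -1.85. Slc6a19, a neutral amino acid transporter, was the gene that rose, from 273, 305 and 289 to 662, 764 and 695 (adjusted p = 0.0111).

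**Figure D4:**
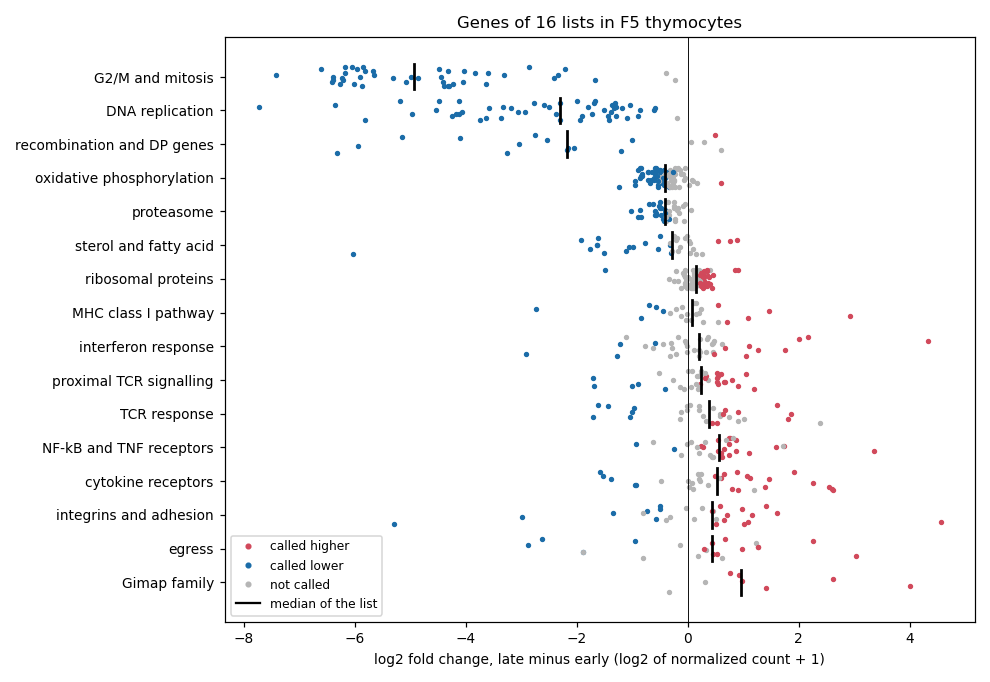
Log2 fold change, late minus early, of each tested member of 16 gene lists in F5 thymocytes, with genes called higher in red, called lower in blue and not called in gray, and a black bar at the median of each list. Mitotic and replication genes lie almost wholly below 0, the recombination list lies mostly below 0, and the Gimap, NF-kB and cytokine receptor lists lie mostly above it.

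Genes of migration and exit from the thymus were more often called higher than all genes were (14.3% higher and 15.8% lower), and this difference was not tested. Of 12 tested chemokine and lipid receptors of the 23 listed, 7 rose and 1 fell, or 6 and 1 without late replicate 2. Leaving out Ccr7 and Cxcr4, which the sort used, 6 of 10 rose (60%) and 1 fell (10%). Of 21 tested genes of the egress program, 10 rose (47.6%) and 4 fell (19%), or 9 and 3 without that library, with a median of 0.44. S1pr1, the sphingosine-1-phosphate receptor that T cells need to leave the thymus, went from 277, 75.4 and 65.0 to 1893, 657 and 612 (3.03 ± 0.43, adjusted p = 1.62e-05). Foxo1, which drives expression of Klf2 and Il7r, went from 2124, 1981 and 1721 to 5960, 4041 and 4132 (1.26 ± 0.19). Neither gene overlapped between stages, and replicate 1 was the highest of the 3 at both stages for both.

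Klf2, the factor that drives S1pr1, lay at 1101, 383 and 341 early and at 3936, 731 and 640 late. Each replicate number had the higher value at the late stage, but early replicate 1 lay above late replicates 2 and 3, and the change of 1.22 ± 0.51 had an adjusted p of 0.0725. It was 8.61e-05 with the replicate number as a term and 0.0344 without late replicate 2. Among the members that fell were Ly6e, from 14717, 17632 and 20889 to 2515, 3861 and 2356, and Lgals1, which encodes galectin-1, from 1771, 1927 and 1763 to 244, 407 and 154. In mature F5 cells Lgals1 was back at 1258, 1755 and 1171, and S1pr1 stood higher still at 9453, 4457 and 5592. Gpr18, a G protein-coupled receptor of lymphocytes, rose from 19.5, 7.74 and 4.85 to 199, 227 and 225 (4.42 ± 0.34). Smad7, the inhibitor of TGF-β signalling, rose from 73.8, 13.8 and 15.2 to 1408, 236 and 269, with replicate 1 again highest at both stages.

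Transcripts of TCR stimulation did not move as 1 group. Of 30 tested genes of the response to TCR signals, 8 rose (26.7%) and 6 fell (20%), against 14.3 and 15.8% of all genes, or 12 and 6 with the replicate number as a term, and the median was 0.38. Cd5, a surface inhibitor of TCR signals whose level follows self-reactivity, went from 10035, 10650 and 8468 to 2362, 4754 and 2336 (-1.70 ± 0.18, adjusted p = 7.08e-07), and late replicate 2 was again the highest late value. Cd6, its relative and neighbour on chromosome 19, went from 10102, 9948 and 8692 to 4625, 5987 and 3850. Ikzf2, which encodes Helios, a factor of strongly signalled thymocytes, fell from 4988, 4933 and 4816 to 2078, 1564 and 1274 (-1.61 ± 0.15). In all 3 the early and late values were clearly apart. Itm2a, a membrane protein of positively selected thymocytes, rose from 3121, 1610 and 2962 to 9055, 6859 and 10429, and Tox, a nuclear factor needed for selected cells to mature, rose from 4930, 4869 and 4384 to 6708, 8104 and 7213. Cd53, a tetraspanin, rose by 1.61 to 6307, 6317 and 6148.

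Egr1, Nr4a1 and Cd69 of that list did not pass the test. Egr1, the ERK-driven zinc finger factor, lay at 726, 1185 and 1071 early and at 996, 1359 and 1037 late (adjusted p = 0.712). Nr4a1, which encodes Nur77, lay at 9595, 2806 and 3371 early and at 10450, 2902 and 3247 late (adjusted p = 0.975). Cd69, the activation marker that holds cells in the thymus, lay at 633, 634 and 604 early and at 697, 521 and 508 late. For Nr4a1 the spread between replicates was much wider than the step between stages, since replicate 1 had over 2 times the value of the others at both stages.

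Junb, an AP-1 subunit, rose at each replicate number, from 5438, 1526 and 1820 to 18304, 5715 and 6895 (1.86 ± 0.43, adjusted p = 0.00205), and replicate 1 was again the highest. Fosl2, another AP-1 subunit, went from 755, 105 and 101 to 4592, 533 and 478, with an adjusted p of 0.0969 and of 0.000498 with the replicate number as a term. Dusp1, a phosphatase of MAP kinases, rose from 2392, 815 and 979 to 5267, 1798 and 2203 (adjusted p = 0.038, and 0.232 without late replicate 1, 0.184 without early replicate 2 and 0.136 without early replicate 3), and Dusp6, the ERK phosphatase, went from 345, 184 and 209 to 815, 315 and 327 (adjusted p = 0.0613, and 0.000121 with the replicate number as a term). Why replicate 1 differed was not tested. The Ras GTPase-activating gene Rasa3 did not follow replicate 1, at 1138, 1182 and 858 early and 4939, 4941 and 4688 late (2.21 ± 0.14, adjusted p = 7.83e-10). Of 15 tested genes of ERK feedback, 6 rose (40%) and 1 fell (6.67%), against 14.3 and 15.8% of all genes, or 5 and 0 without late replicate 2.

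Of 36 genes of proximal TCR signalling, 15 rose (41.7%) and 5 fell (13.9%), against 14.3 and 15.8% of all genes, or 14 and 4 without late replicate 2, with a median of 0.23. Lck, the kinase bound to CD4 and CD8, had 30659, 32247 and 31881 early and 31053, 31824 and 31826 late. Zap70, the kinase recruited to the TCR complex, had 4648, 4244 and 4357 early and 4587, 4909 and 5158 late (adjusted p = 0.23). Lck thus differed by less than the spread between replicates. Syk, the relative of ZAP-70 used by the pre-TCR, fell from 529, 638 and 818 to 187, 233 and 189 (adjusted p = 0.0105). Fyn, the other Src kinase of T cells, rose from 4260, 3446 and 3106 to 8478, 6471 and 7300. Prkcq, which encodes PKC-θ, rose from 7213, 6232 and 6235 to 11663, 10956 and 11612 (0.80 ± 0.10). Csk, the kinase that restrains Src kinases, rose to 9260, 8726 and 8127 from 6305, 6201 and 5646, as did Ptprc, which encodes CD45, to 55115, 45546 and 56016 from 35402, 30138 and 32761. From late to mature cells 1 gene of this list rose and 16 fell, where 13.1 and 9.47% of all genes did. Both comparisons share the late libraries. Of 9 tested genes of the TCR complex, 3 rose (33.3%) and 2 fell (22.2%), or 2 and 2 without late replicate 2.

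Lineage factors moved in both directions, and of 32 tested 9 rose and 9 fell (28.1% each, against 14.3 and 15.8% of all genes), with a median of -0.08. Of the 32, 1 passed the filter through the late libraries alone (Zbtb7b) and 1 through the early ones alone (Tbx21). Without the coreceptor genes of the sort, 9 of 29 rose (31%) and 8 fell (27.6%). Runx3, which encodes the factor that silences Cd4 and sets the CD8 fate, went from 1013, 834 and 512 to 4394, 3174 and 3873 (2.32 ± 0.31, adjusted p = 7.58e-06). Zbtb7b, which encodes ThPOK of the CD4 lineage, was low at both stages, at 8.59, 7.61 and 2.47 early and 12.3, 13.5 and 35.2 late (adjusted p = 0.107). Bach2, a repressor that keeps T cells naive, rose from 1011, 644 and 645 to 4070, 2929 and 2527, and Foxp1, a factor of T cell quiescence, from 3538, 3127 and 3194 to 8552, 7325 and 7516. Satb1, the chromatin organiser of DP cells, had 1 of the largest rises in normalized counts, to 84081, 78048 and 81519 from 60855, 51775 and 60577. Myb, which supports DP survival, fell to 9469, 7261 and 5345 from 17333, 16699 and 15434. Gata3, which favours the CD4 lineage, lay at 1840, 1645 and 1869 early and at 1097, 1308 and 1013 late, with an adjusted p of 0.0682, and 0.0167 with the replicate number as a term. Id2, which blocks E proteins, rose from 200, 82.2 and 71.8 to 1260, 447 and 287. Id3, of the same family, went from 1634, 1228 and 1110 to 8291, 735 and 567. It was thus higher at the late stage in replicate 1 alone (adjusted p = 0.844).

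Of 23 listed genes of effector CD8 cells 10 were tested. Of these, 2 reached the filter through late libraries alone and 1 through early ones alone and so had to differ, and no count of calls is read from this list. Nkg7, a protein of cytotoxic granules, went from 4.87, 14.5 and 4.85 to 206, 124 and 189 (4.39 ± 0.36), and to 1882, 1704 and 2204 in mature cells. Cd7, a small immunoglobulin-like receptor, went from 5.06, 8.25 and 3.56 to 162, 63.2 and 108. Prf1, which encodes perforin, rose from 88.7, 106 and 70.9 to 220, 251 and 224. These 3 rose without overlap between stages. Gzma, which encodes granzyme A, went the other way, from 544, 532 and 725 to 39.8, 105 and 35.7, and back to 478, 1073 and 777 in mature cells. Tbx21, which encodes T-bet, went from 14.6, 27.1 and 17.5 to 0.00, 2.01 and 0.00.

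Among cytokine receptors and their signalling genes, 15 of 32 tested rose (46.9%, against 14.3% of all genes) and 5 fell (15.6%, against 15.8%), with a median of 0.53. Without late replicate 2, 14 rose and 5 fell. Il7r, the receptor for the survival cytokine IL-7, went from 21.4, 22.2 and 22.3 to 123, 58.2 and 177 (2.25 ± 0.44, adjusted p = 0.000489). Il2rb, the chain shared by the IL-2 and IL-15 receptors, went from 16.4, 31.7 and 11.6 to 182, 83.6 and 90.0. Il6ra went from 35.9, 27.3 and 29.5 to 238, 167 and 176. All 3 were low transcripts even after the rise. The 2 chains of both interferon receptors moved apart. Ifngr1 fell from 7031, 6499 and 6655 to 2608, 2310 and 1860, while Ifngr2 rose from 1196, 721 and 808 to 4815, 1552 and 1951 (adjusted p = 0.0301, and 0.174 without late replicate 1, 0.102 without early replicate 2 and 0.0828 without early replicate 3). Ifnar1 rose from 2350, 1989 and 2197 to 3562, 3043 and 3301, while Ifnar2 fell from 1056, 1222 and 1134 to 564, 696 and 522. Socs3, a feedback inhibitor of cytokine signals, rose from 74.5, 69.1 and 107 to 306, 323 and 301. Socs1, the inhibitor of IL-7 and interferon signals, fell from 1921, 1062 and 1223 to 1316, 568 and 482 (adjusted p = 0.0191, and 0.0843, 0.132 and 0.115 without late replicates 2 and 3 and early replicate 1).

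Of 32 tested genes of NF-κB and TNF receptor signalling, 17 rose (53.1%, against 14.3% of all genes) and 2 fell (6.25%, against 15.8%), or 14 and 1 without late replicate 2, with a median of 0.57. Ltb, which encodes lymphotoxin β, had almost no spread within a stage, at 1354, 1354 and 1359 early and 2889, 2897 and 2923 late. Traf1, an adaptor of TNF receptors, rose from 242, 311 and 211 to 560, 917 and 854. Cd40lg, the CD40 ligand, rose from 11.7, 3.87 and 2.91 to 95.0, 47.2 and 55, and stood at 15.2, 2.83 and 5.02 in mature cells. It was thus highest at the late stage among the F5 stages. Nfkbie, an inhibitor of NF-κB, was 1 of the 2 that fell, from 649, 603 and 629 to 298, 377 and 318.

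The genes with the smallest adjusted p included Gimap4, Itgb3 and Gimap3. The Gimap genes encode GTPases of lymphocyte survival and lie together on chromosome 6. Of the 8 tested, 6 rose (75%, against 14.3% of all genes) and none fell. Gimap4 (chromosome 6, 48684549 to 48692060) went from 243, 138 and 176 to 2647, 3483 and 2675 (4.0 ± 0.17, adjusted p = 1.78e-12), and Gimap3 from 587, 683 and 515 to 2777, 4559 and 3809 (2.62 ± 0.15). Gimap1 was the exception in direction, at 1199, 1608 and 1507 early and 803, 1338 and 1352 late, with an adjusted p of 0.238, and 0.0465 with the replicate number as a term. The members are related in sequence, and reads shared between them could have been split by the counting.

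Itgb3, the integrin β3 chain (chromosome 11, 104608000 to 104670476), went from 233, 131 and 125 to 4318, 3206 and 3723 (4.56 ± 0.20, adjusted p = 2.26e-12). Itgb2, the β2 chain of LFA-1, rose from 5869, 5778 and 5387 to 11443, 12647 and 13847. Of 27 tested genes of adhesion, 12 rose (44.4%) and 7 fell (25.9%), against 14.3 and 15.8% of all genes. Through the early libraries alone 1 of the 27 passed the filter. Ly6d fell from 4124, 4248 and 5048 to 60.2, 495 and 46.9, and Cd52 rose from 1680, 1601 and 1298 to 4172, 3952 and 3917. Among costimulatory and inhibitory receptors, 9 of 20 rose (45%) and 2 fell (10%), against 14.3 and 15.8% of all genes. Cd7, 1 of the 20, passed the filter through the late libraries alone. Cd226, a costimulatory receptor, rose from 539, 491 and 574 to 2603, 2603 and 3290, Btla, an inhibitory one, from 201, 79.3 and 130 to 711, 443 and 671, and Icos from 341, 270 and 185 to 1290, 770 and 661. Slamf6, a SLAM receptor of DP cells, fell from 2986, 3883 and 4031 to 919, 1714 and 1475.

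The rule for large rises also named genes outside the lists. Gprin3 rose from 13.6, 18.4 and 7.77 to 534, 348 and 492 (5.06 ± 0.57). Acvrl1, a receptor of the BMP family, rose from 19.2, 21.8 and 39.4 to 702, 685 and 683, and Rora, a nuclear receptor, from 99.0, 79.4 and 55.6 to 1800, 688 and 1182. The other genes so named were Samhd1, Card6, Ggt5 and Mn1, beside genes described above and the predicted gene Gm10163. Samhd1 was tested through the late libraries alone. Gm10163 lost its call without late replicate 1 or 2 or early replicate 2 or 3 (adjusted p = 0.0352, and 0.086 without late replicate 2). Among the genes with the largest differences in normalized counts, Tuba1b, a tubulin, fell from 25194, 27173 and 26341 to 4627, 4794 and 2316, and Ptma, prothymosin α, from 41397, 44245 and 40709 to 21145, 17188 and 11941. Arhgef1, a guanine nucleotide exchange factor, rose from 22806, 24969 and 24316 to 38432, 41880 and 44681. Hmha1 and Chd3 rose by 0.62 and 1.31. By the smallest adjusted p, Ctsw, a cathepsin of cytotoxic cells, rose by 3.69, and Nsg2, Rnf144a, Cit and Dennd4c changed by -1.8, -2.82, -4.05 and -1.49.

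Metabolic genes fell in part, where 15.8% of all genes fell. Of 77 tested genes of oxidative phosphorylation, 42 fell (54.5%) and 1 rose, or 28 and 1 without late replicate 2, with a median of -0.41. Of 77 mitochondrial ribosomal genes 21 fell (27.3%, and 16 genes without late replicate 2), of 38 proteasome genes 20 fell (52.6%, and 18 genes without it), and of 18 tRNA synthetase genes 6 fell (33.3%). Genes of cytosolic ribosomal proteins went the other way, with 27 of 81 called higher (33.3%) and 1 lower, or 37 and 1 without late replicate 2. Those changes were small, with a median of 0.16, and 72 of the 81 rose from late to mature cells, where 13.1% of all genes did, in a comparison that shares the late libraries. Of 33 sterol and fatty acid genes 15 fell (45.5%) and 3 rose (9.09%), or 12 and 3 without late replicate 2. Fads2, a fatty acid desaturase, went from 230, 227 and 214 to 0.00, 19.1 and 1.02, and Sqle, an enzyme of cholesterol synthesis, from 365, 437 and 398 to 142, 134 and 110. Mvd, Elovl6 and Abcg1 rose, by 0.77, 0.89 and 0.54. Glycolysis genes split evenly, with 8 of 26 higher and 8 lower (30.8% each), or 6 and 7 without late replicate 2. Of 40 genes of ribosome biogenesis 9 were higher (22.5%) and 5 lower (12.5%), against 14.3 and 15.8% of all genes, with a median of 0.05, and without late replicate 2 only 5 were higher and 2 lower.

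Ion channels set the membrane potential and the calcium entry that TCR signals need. Of the 13 voltage-gated and related channel genes listed, 5 rose (38.5%) and 4 fell (30.8%), against 14.3 and 15.8% of all genes. The study named these genes from the same data, for their relation to low self-reactivity. The list is therefore not independent of these libraries, and the shares are given side by side only. Kcnh2 and Kcnh3, voltage-gated potassium channels, rose from 796, 727 and 733 to 1646, 1355 and 1717 and from 410, 316 and 373 to 829, 720 and 904. Tmie, a subunit of the hair cell transduction channel, rose from 74.2, 51.8 and 43.0 to 381, 470 and 618. Among those that fell was Cacna1e, a voltage-gated calcium channel, from 183, 238 and 188 to 67.7, 142 and 89.1 (adjusted p = 0.0137, and 0.0779 and 0.0615 without late replicate 1 and early replicate 2). Over all potassium channel genes by symbol, 22 of 92 were tested, 9 rose and 3 fell. Here 1 of the 22 passed the filter through the late libraries alone. Of 36 tested genes of calcium entry and other channels, 6 rose (16.7%, near the 14.3% of all genes) and 8 fell (22.2%, against 15.8%). Orai1, the pore of store-operated calcium entry, rose from 267, 189 and 212 to 897, 494 and 481, while P2rx1, an ATP-gated channel, fell from 282, 267 and 281 to 36.1, 41.9 and 13. Among Notch pathway genes, 8 of 23 rose (34.8%) and 5 fell (21.7%), against 14.3 and 15.8% of all genes. The filter was passed through the early libraries alone by 1 of the 23. Notch3 fell from 1120, 999 and 1094 to 320, 299 and 339, Hes1, a Notch target, from 181, 114 and 40.7 to 31.3, 8.68 and 3.52 (adjusted p without late replicate 3 0.0563), and Lfng, which modifies Notch receptors, rose from 24.95, 20.9 and 21.8 to 360, 127 and 195.

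The change was then set beside that of the other lines. In OT-1, 2021 genes were called higher (13.8%) and 2268 lower (15.5%) at the late stage. In TG6 the counts were 1869 (12.8%) and 2121 (14.5%). Of the genes higher in F5, 1191 were also higher in OT-1 (57.2% of the F5 genes and 58.9% of the OT-1 genes) and 1198 also higher in TG6 (57.5% and 64.1%). Of those lower in F5, 1550 were also lower in OT-1 (67.3% and 68.3%) and 1434 in TG6 (62.3% and 67.6%). Opposite calls were seen for 33 genes against OT-1 and 19 against TG6. The test of the difference between lines, an interaction in the same fit, called 277 genes against OT-1 (1.9%) and 316 against TG6 (2.16%). Without F5 late replicate 2 it called 338 and 260, and with the replicate number of the F5 and OT-1 libraries as a term 505 and 538, and leaving out 1 library gave from 134 to 338 against OT-1 and from 159 to 365 against TG6. The call of a difference was lost without some single libraries for Rtp4, Usp18, Gpr18, Pak6, Cfap74, Ifit3 and Samhd1 against OT-1 and for Fn3k, Il17re and Oas3 against TG6, all named below. The F5 change was below that of the other line (a smaller rise or a deeper fall) for 172 of the 277 genes (1.18% of all tested) and for 212 of the 316 (1.45%). Of these, 90 and 56 were called lower in F5.

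Many interferon-response genes had a lower change in F5 than in TG6, and some than in OT-1. These genes encode antiviral proteins and are induced through the receptors for type I and type II interferon. Of 39 tested genes in F5, 9 rose (23.1%) and 4 fell (10.3%), against 14.3 and 15.8% of all genes, with a median of 0.21. The counts were 7 and 5 without late replicate 2 and 11 and 7 with the replicate number as a term. Among the 39, 2 passed the filter through the late libraries alone, which favours a rise, and Samhd1 was 1 of them. In OT-1 33 rose and 2 fell, with a median of 1.22, and in TG6 34 rose and none fell, with a median of 1.87. Over all tested genes 13.8% rose and 15.5% fell in OT-1, and 12.8% rose and 14.5% fell in TG6. By the interaction, the F5 change was below that of the other line for 13 of the 39 against OT-1 and for 27 against TG6, where 1.18% and 1.45% of all genes were.

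**Figure D5:**
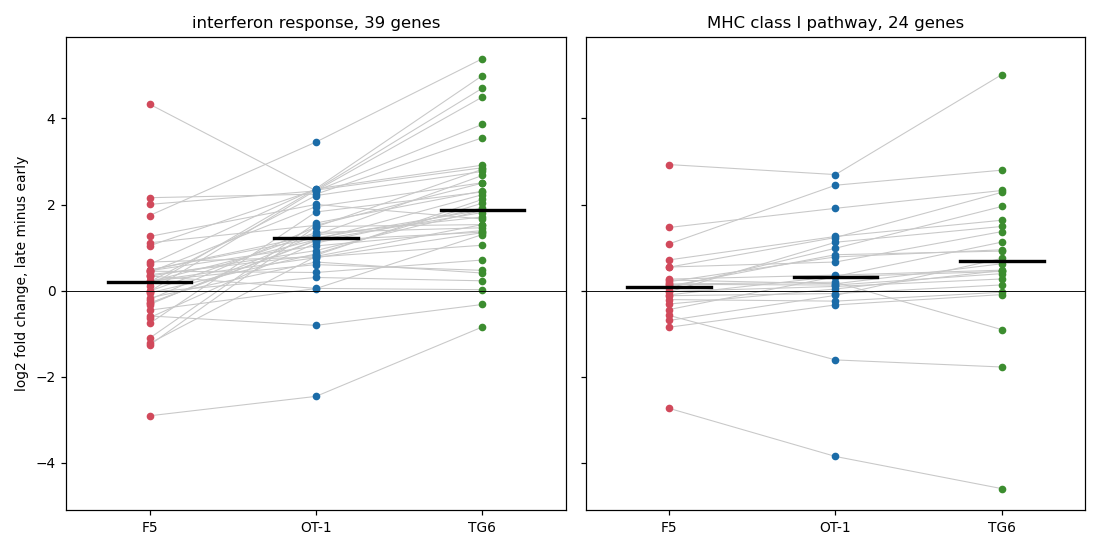
Log2 fold change, late minus early, of 39 interferon-response genes and 24 MHC class I genes in F5, OT-1 and TG6 thymocytes, each point a gene and the black bar the median. Interferon-response genes centre near 0.21 in F5, 1.22 in OT-1 and 1.87 in TG6, and MHC class I genes near 0.09, 0.33 and 0.69.

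Promoters of 4 genes of the interferon list are printed because such genes carry the interferon-stimulated response element, whose core was searched as GAAANNGAA on both strands and set in capitals. Each is the 250 bases before the start on the gene's strand, from RefSeq on GRCm38.p6: chr5:120777660-120777909 minus for Oas3, which makes 2-5A for RNase L, chr4:156200819-156201068 minus for Isg15, a ubiquitin-like modifier, chr19:34583279-34583528 plus for Ifit3, an RNA-binding antiviral protein, and chr8:71537473-71537722 minus for Bst2, tetherin.
Oas3: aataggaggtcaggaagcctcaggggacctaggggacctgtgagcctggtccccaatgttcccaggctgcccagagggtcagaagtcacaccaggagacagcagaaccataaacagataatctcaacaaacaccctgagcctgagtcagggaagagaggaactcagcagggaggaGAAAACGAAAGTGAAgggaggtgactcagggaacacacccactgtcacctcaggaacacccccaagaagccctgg
Isg15: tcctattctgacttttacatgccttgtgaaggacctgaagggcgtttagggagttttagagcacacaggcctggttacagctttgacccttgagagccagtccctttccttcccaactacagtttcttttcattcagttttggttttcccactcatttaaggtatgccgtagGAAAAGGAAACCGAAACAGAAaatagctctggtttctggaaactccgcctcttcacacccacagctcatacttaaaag
Ifit3: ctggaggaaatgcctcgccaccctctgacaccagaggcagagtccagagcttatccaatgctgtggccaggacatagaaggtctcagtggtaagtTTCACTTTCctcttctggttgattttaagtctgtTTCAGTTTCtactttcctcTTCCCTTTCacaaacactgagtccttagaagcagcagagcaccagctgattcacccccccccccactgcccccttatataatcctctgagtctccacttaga
Bst2: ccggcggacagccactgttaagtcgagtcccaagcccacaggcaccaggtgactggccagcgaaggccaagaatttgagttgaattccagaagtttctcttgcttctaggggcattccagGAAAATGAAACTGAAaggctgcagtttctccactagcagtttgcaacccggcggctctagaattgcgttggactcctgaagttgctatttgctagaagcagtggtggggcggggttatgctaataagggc

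All 4 windows hold the core, while their genes differed in F5. The core was in 16 of the 30 interferon promoters in the table (53.3%), overlapping copies included, and in 6.14% of the tested genes. Oas3 rose in F5, from 57.8, 76.3 and 80.1 to 345, 300 and 314 (2.16 ± 0.22), though by less than in TG6, where it went from a mean of 127 to 1482 (interaction, adjusted p = 0.021). Isg15 stayed at 68.2, 50.3 and 37.9 against 41.9, 34.1 and 45.9 in F5 and went from a mean of 101 to 646 in TG6 (adjusted p = 0.000487). Ifit3 stayed near 10 in F5, at 6.82, 7.74 and 16.5 against 8.17, 17.1 and 8.15, and went from means of 29.9 to 159 in OT-1 and of 21.3 to 166 in TG6. Bst2 fell in F5, from 189, 223 and 204 to 91.9, 85.3 and 77.4 (-1.27 ± 0.17, adjusted p = 7.71e-06). In OT-1 and TG6 Bst2 rose from means of 210 and 201 to 584 in both, and the change differed from both lines (adjusted p = 2.2e-06 and 4.79e-06).

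Irf7, the interferon-induced regulator of interferon genes, rose in F5 from 142, 134 and 151 to 356, 265 and 311, and in TG6 from 277 to 1572 (adjusted p = 0.0127). Ifit1 rose in F5 from 4.87, 14.5 and 13.6 to 15.3, 23.1 and 28.5 (adjusted p = 0.0246, and 0.0623, 0.113 and 0.187 without late replicates 2 and 3 and early replicate 1), against 35.8 to 951 in TG6. Usp18, the protease that removes ISG15, and Rtp4 differed from both lines. Samhd1, a nucleotide hydrolase that limits viruses, was the 1 member with the larger change in F5 than in OT-1. All its F5 early values lay under the filter of 10, so it was tested through the late libraries alone, which favours a rise. It went from 8.82, 8.44 and 9.82 to 224, 182 and 199 in F5 (4.33 ± 0.34) and from a mean of 312 to 1511 in OT-1 (adjusted p = 0.0335). Its F5 level thus stayed below the OT-1 level at both stages.

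MHC class I genes showed a like order. Of 24 tested in F5, 5 rose and 5 fell (20.8% each, against 14.3 and 15.8% of all genes), with a median of 0.09. The filter was passed through the early F5 libraries alone by 1 of the 24. In OT-1 12 rose and 3 fell, with a median of 0.33, and in TG6 18 rose and 3 fell, with a median of 0.69. Over all tested genes 13.8% rose and 15.5% fell in OT-1, and 12.8% rose and 14.5% fell in TG6. The F5 change was below that of OT-1 for 5 genes and below that of TG6 for 13, where 1.18% and 1.45% of all genes were. H2-K1, a classical class I heavy chain, rose in F5 from 767, 866 and 752 to 1888, 1631 and 1553 (1.09 ± 0.16). In OT-1 it went from 999 to 5486 and in TG6 from 1136 to 8001, and its change was smaller in F5 than in both (adjusted p = 0.00195 and 0.000357). Nlrc5, the transactivator of class I genes, rose in F5 from 263, 312 and 239 to 2061, 1900 and 2229 (2.93 ± 0.21), and from 218 to 7083 in TG6. B2m, the light chain, lay at 4187, 4404 and 4072 early and at 6406, 6019 and 6063 late, with an adjusted p of 0.0947, and went from 3168 to 14934 in TG6. TG6 mice carry 2 H2 haplotypes and the reads were aligned to mm10, and related class I genes share sequence, so the H2 values of TG6 cannot be told apart from this difference in genotype.

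Other genes named by the rule for line differences rose less in F5 or did not pass the test there. Itgae, which encodes CD103, the integrin of intraepithelial CD8 cells, lay at 18.5, 21.3 and 13.6 early and at 44.9, 14.1 and 25.5 late in F5 (adjusted p = 0.423). It reached 2894, 1421 and 3063 in mature F5 cells. In OT-1 it went from 145 to 3643 at the late stage and in TG6 from 38.3 to 1292 (adjusted p of the difference 0.000552 and 0.000357). Tspan9, a tetraspanin, lay at 110, 67.5 and 50.5 early and at 130, 67.7 and 155 late in F5, and went from 141 to 2044 in OT-1 and from 87.0 to 1319 in TG6. Unlike Itgae, Tspan9 stayed low in mature F5 cells, at 71.5, 30.2 and 62.8. Ctss, cathepsin S, rose in F5 from 13.6, 18.4 and 4.85 to 50.04, 39.1 and 35.7, and in TG6 from 8.49 to 470. Il7r and Il2rb rose less in F5 than in TG6, where they went from 11.5 to 723 and from 29.9 to 1199 (adjusted p = 0.00271 and 0.000983). Cd7 also rose less than in TG6, where it went from 4.22 to 510.

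Another 3 genes of that rule fell in F5 and were not called lower in OT-1 or TG6. Coro2a, a coronin of the actin network, went from 39.5, 57.1 and 89.7 to 0.00, 4.95 and 0.00, Tubb3, a tubulin, from 49.7, 86.1 and 67.0 to 10.2, 6.02 and 2.04, and Gsg2, which encodes haspin, a mitotic histone kinase, from 297, 458 and 459 to 60.2, 105 and 72.3. Their OT-1 means went from 79.1 to 145, from 93.9 to 136 and from 327 to 519, and their TG6 means from 14.3 to 14.9, from 27.8 to 42.6 and from 277 to 236. The change differed from OT-1 and from TG6 for all 3. Coro2a passed the filter through the early F5 libraries alone, which favours a fall in F5. Ikzf2 and Lgals1 also fell further in F5 than in OT-1, where they went from 4868 to 4839 and from 1576 to 1042 (adjusted p = 0.000168 and 0.00229). In the other direction, Itgb3 rose more in F5 than in OT-1, which already had 1614 early and reached 6386 late (adjusted p = 3.61e-05). Gimap4 lay between the lines. It started at 2485 in OT-1 and rose to 7665, and went from 108 to 5378 in TG6, so that the F5 change was larger than in OT-1 and smaller than in TG6. Itm2a and Gpr18 rose more in F5 than in OT-1, where they went from 8881 to 10640 and from 113 to 561.

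For the remaining genes of that rule the F5 change was above that of another line. Fn3k lay at 100, 92.8 and 128 early and at 107, 118 and 133 late in F5 but fell from 95.9 to 19 in OT-1 and from 239 to 66.6 in TG6. Cfap74 fell in F5 from 1771, 2049 and 2060 to 709, 1415 and 967, and more in OT-1 and TG6, where it ended at 175 and 294. Il17re fell in F5 from 89.7, 134 and 97.9 to 20.0, 54.5 and 23.5, and in TG6 from 256 to 12.6. Mme, which encodes CD10, was a transcript of OT-1, with means of 15457 and 7827, and had at most 16.6 in any F5 library. Trbv12-1, a TCR beta variable gene, had means of 28527 and 23360 in OT-1. In F5 it was listed at 0 in the 3 early libraries and at 15.3, 28.1 and 2.04 in the late ones. It passed the filter through the late libraries alone, which favours a rise. The sizes of the fitted changes of Mme and Trbv12-1 depend on the pseudocount. Pak6 rose in F5 from 18.2, 15.2 and 23.3 to 162, 44.9 and 137 and stayed at 79.8 and 72.9 in OT-1.

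Markers of other cells of the thymus were present at differing levels. Of all tested genes 14.3% rose and 15.8% fell, and these lists are too short for their counts to be read against those shares. Of 8 B cell markers 4 were tested and 2 fell (50%), and 1 of the 4 passed the filter through the early libraries alone. The sum of the B cell markers went from between 8021 and 10416 early to between 3384 and 4859 late. Nearly all of it was Ighm, while Cd79a was below the filter. Of 18 myeloid markers 7 were tested and 2 fell (28.6%), with sums of 433, 855 and 372 early and of 222, 217 and 229 late. Lyz2, Csf1r and Cd14 were below the filter. Of 13 epithelial and stromal markers 7 were tested and 2 fell (28.6%), with sums of 3578 to 3964 early and 3741 to 3951 late. Krt5 and Krt8 were below the filter. Of 6 erythroid markers 4 were tested and none was called (2 fell with the replicate number as a term). Their sums were 33.9 to 682 early and 47.6 to 90.4 late, and 1 of the 4 passed the filter through the early libraries alone. Of 9 genes listed for NK, NKT and γδ T cells only Trdc, Sox13 and Foxp3 were tested, and 1 of these 3 rose (33.3%). The sums of this list were 8831 to 10056 early and 6538 to 8294 late. Ncr1, Klrb1c, Zbtb16 and Tyrobp were below the filter, so the sums do not stand for NK or NKT cells. Of 9 markers of double-negative cells 7 were tested and 4 fell (57.1%). The part of these cells in the results above was not tested.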

How the data were processed

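Total RNA of sorted thymocytes was sequenced on the Illumina HiSeq platform at BGI. Per the submitters' processing notes and the study's methods, reads were trimmed with Trimmomatic 0.32, aligned with Bowtie2 2.3.2 to mm10 and quantified with RSEM 1.2.31. The values deposited by the authors are a signal, RSEM estimates per gene symbol divided by DESeq2 size factors, so that expected counts were not used here. Only 41.2 to 43.1% of values came out as whole reads (tolerance 0.001), and no count test was run. Whether counting used strand is not given in the sources used here.

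All 26 libraries were fitted with limma 3.58.1 (R 4.3.3) with 9 group means and a trend in the prior variance, on log2(value + 1), a scale that understates changes of low genes. The F5 genes tested were those at 10 or more in at least 2 of the 6 libraries, and p-values were adjusted over all 14604 by the Benjamini-Hochberg method, with a threshold of 0.05. Differences between lines were interaction terms of the same fit. The fit was tested on simulated data. With estimates that are not counts, the number of replicates limits the precision. Replicates are separate samples in the labels.

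Same-numbered F5 libraries deviated together. All 9 correlations of their deviations from the group means lay between 0.134 and 0.406 and the 18 between different numbers lay between -0.338 and 0.058, so the number was a replicate block in an alternative fit, although the labels do not say that it marks 1 mouse. For OT-1 the early and late correlations were 0.0427 to 0.196, and not all lay above 0.1. The TG6 late columns carry no matching number and stayed unnumbered.

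Genes named by rule were the 15 in each direction with the largest change among called genes with a higher group mean of at least 100 and no overlap between groups, the 5 with the smallest adjusted p, the 5 with the largest difference in normalized counts and the 6 with the largest difference from each line. Predicted genes were not described, apart from 1 named by this rule, and a few genes are not reported here. The gene lists and members were chosen with earlier results of these data known. Positions are of GRCm38 with GENCODE vM21. RefSeq gave promoter windows for 27025 genes on GRCm38.p6, 9576 of them tested. Alternatives were pseudocounts of 0.1 and 5, no filter, a filter over all 26 libraries, a minimum mean of 50, quantile normalization, scaling to equal totals, no trend, only the groups compared, the replicate block and leaving out each library.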

Additional observations from a re-analysis of the deposited data

Results flagged for a closer look

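Groups of 3 libraries were too small for a test of single libraries. The results below are those where the change from early to late in F5 differed from that in another line by the interaction test. Counts of such genes were 277 against OT-1 (1.9% of all tested) and 316 against TG6 (2.16%). Among 39 tested interferon-response genes, 13 had a change in F5 below that in OT-1 and 27 one below that in TG6. Among 24 tested MHC class I genes the counts were 5 and 13. Over all tested genes the shares with such a lower change in F5 were 1.18% against OT-1 and 1.45% against TG6. All values below are the F5 change minus the change of the other line, on the log2 scale, and why the lines differ was not tested.

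Against TG6, the interferon-response genes gave -1.39 for Irf7, -3.66 for Ifit1, -3.64 for Oas2, -1.39 for Oas3, -2.80 for Ifit3, -3.00 for Isg15, -2.80 for Bst2, -3.42 for Usp18 and -3.03 for Rtp4. Against OT-1 the values were -2.25 for Ifit3, -2.75 for Bst2, -2.68 for Usp18, -1.69 for Rtp4 and 2.01 for Samhd1. Samhd1 was tested through the late F5 libraries alone, which favours a rise in F5. For MHC class I, H2-K1 gave -1.36 against OT-1 and -1.71 against TG6, and Nlrc5 and B2m gave -2.09 and -1.74 against TG6.

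Of the other genes with a smaller or more negative change in F5, Itgae gave -4.28 against OT-1 and -4.63 against TG6, Tspan9 -3.23 and -3.39, Coro2a -5.78 and -4.92, Tubb3 -3.93 and -4.04, Gsg2 -3.04 and -2.12, and Ikzf2 -1.61 and -1.06. Lgals1 gave -2.27 against OT-1. Coro2a was tested through the early F5 libraries alone, which favours a fall in F5. Against TG6, Ctss gave -3.97, Tgtp1, an interferon-induced GTPase outside the list, -4.73, Il7r -3.62, Il2rb -2.76 and Cd7 -2.59.

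A larger or less negative change in F5 than in OT-1 was found for Itgb3 (2.57), Pak6 (2.49), Fn3k (2.47), Mme (3.48), Trbv12-1 (3.79), Cfap74 (1.22), Gpr18 (2.07) and Itm2a (1.56). The sizes for Mme and Trbv12-1 depend on the pseudocount. Mme had at most 16.6 in any F5 library and Trbv12-1 was listed at 0 in the 3 F5 early ones. Trbv12-1 was thus tested through the late F5 libraries alone, which favours a rise in F5. Against TG6 a larger change was found for Fn3k (1.97), Il17re (2.43) and Cfap74 (2.10). Gimap4 gave 2.38 against OT-1 and -1.63 against TG6.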

How the results depend on the processing

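No called change of a gene in the text was reversed, and 23 values that were called in neither setting changed sign. Of 231 genes tested under the alternatives, 191 were called, and a single alternative took away at most 10 of these calls (without F5 late replicate 1). The replicate block took away none of them. Counts of F5 genes called higher and lower were 2532 and 2579 with the block, 1868 and 2531 with total scaling, 2511 and 2142 with quantile normalization, and 1691 and 2108 with only the groups compared. Leaving out 1 library gave 1595 to 1911 higher and 1832 to 2248 lower.

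Counts of genes that differed between lines depended most on the setting. With the replicate block, which holds numbers for F5 and OT-1 alone, 505 genes differed between F5 and OT-1 and 538 between F5 and TG6, and 604 and 716 with the block and only the groups compared. Leaving out 1 library gave 134 to 338 against OT-1, with 163 without F5 early replicate 2, 157 without F5 early replicate 3, 134 without OT-1 late replicate 1, and 169 without OT-1 early replicate 1 or 2. Against TG6 it gave 159 to 365, with 169 and 159 without each TG6 late column. Over the named genes and alternatives, 1742 values of these differences kept their call and 234 lost it. The cause was not tested.

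Medians of 7 lists near 0 changed sign when 1 library was left out. They ranged from -0.089 to 0.052 for the TCR complex (above 0 without late replicate 1 or early replicate 3), from -0.17 to 0.031 for lineage factors (highest without early replicate 1) and from -0.27 to 0.45 for E and Id proteins (below 0 without late replicate 1 or early replicate 3). For survival genes they ranged from -0.11 to 0.17 and for ribosome biogenesis from -0.076 to 0.13, both below 0 without late replicate 1 or early replicate 2. For glycolysis they ranged from -0.068 to 0.088 and for calcium entry from -0.024 to 0.13, both lowest without early replicate 2. With 3 libraries a stage, the precision of all these values is limited, and that of low transcripts was not compared with that of abundant ones.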
